A study of Gallus gallus with 24 samples.

Results

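Gene expression in abdominal fat of high-growth (HG) and low-growth (LG) chickens was compared at 5 wk of age. The line difference was read on the 4 arrays whose labels give 5 wk, out of 24 arrays spread evenly over 6 ages between 1 and 11 wk. RNA of 1 HG and 1 LG bird met on each array, so 4 birds of each line entered at 5 wk, and n counts arrays. Standard errors (SE) and p-values came from a fit to all 24 arrays, in which the ages shared 1 estimate of the spread. An SE therefore does not describe the scatter of the 4 readings printed beside it. Both groups were cockerels, with no allele or drug named in the labels, from meat-type chickens bred apart for high or low body weight, and all were vaccinated against Marek's disease virus at hatching and had free access to feed. LG chicks were kept apart from HG chicks up to 3 wk and were given crushed feed pellets in that time, so early feed form went with line. Each line is a single population, so selection on growth and any other divergence between the populations cannot be told apart.

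The arrays were spotted cDNA arrays on which 1 bird was labelled with a red dye and the other with a green dye. LG was red on arrays 1 and 3 and HG was red on arrays 2 and 4. The values given are log2 HG over LG relative to the median spot of the array, and a negative value means lower in HG than in LG. The direction is likely rather than certain: it follows the dyes in the labels and the study's design, but the table of values does not name its numerator. Of 19200 spots, 18183 to 18362 were measured per array. Ratios hold no absolute level, so the tissue could not be checked by the level of its markers, and only the 12 adipocyte markers measured could be compared between the lines. Before any dye correction the arrays resembled those of the same dye orientation (r across spots of 0.26 for arrays 1 and 3 and of 0.40 for arrays 2 and 4) and not those of the other (r of -0.16 to -0.02). A dye coefficient was therefore part of every test. Spots are not independent replicates, and these correlations are descriptions.

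Fat in the chicken abdomen stores triglyceride that is largely made in the liver and carried in by the blood. Adipocytes release it again through lipases, the first of which is PNPLA2 (adipose triglyceride lipase). The tissue also holds vessels, matrix and immune cells. Interferons switch on a shared set of antiviral and antigen-presenting genes in most cell types, and the complement cascade, known mainly as a product of the liver, is also made in fat, where C1R and C1S are the proteases that open its classical pathway and C4 is their substrate.

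At 5 wk the genes that passed the test were all lower in HG. They included genes of the interferon response and of the start of the complement cascade, the matrix genes TIMP4 and TGM2, the prostaglandin transporter SLCO2A1 and the lipase PNPLA2. Of 6183 genes tested with limma, 23 (0.372%) passed an adjusted p of 0.05 (Benjamini-Hochberg over all genes), all 23 lower in HG and 0 higher. At an unadjusted p under 0.05 there were 451 genes, 189 higher and 262 lower. The 23 log2 ratios ran from -2.62 for LOC422513 to -0.54 for DHRS4. HG was lower on all 4 arrays for 22 of them, against 6.25% of 6097 genes measured on all 4 arrays. The 23 were chosen on these same arrays, so their shared sign is no separate evidence. With the arrays scaled to an equal spread, 68 genes passed, 10 higher and 58 lower.

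The 23 genes did not behave alike across the arrays. Their median was -1.78 on array 1, -1.35 on array 2, -1.07 on array 3 and -0.66 on array 4. Array 4 was the nearest to 0 for 14 of the 23, and for 21.8% of all genes. The count depended on single arrays: leaving out array 1 left 1 of the 23 genes (SLCO2A1), leaving out array 2 left 6, leaving out array 3 left 14, and leaving out array 4 gave 42 genes that included 22 of the 23. SLCO2A1 was the only gene that passed whichever array was left out, but with no filter on missing spots it was -0.70 and did not pass (adjusted p = 0.514). With the 4 arrays fitted alone, which leaves 2 residual degrees of freedom, 0 genes passed with limma and 508 had an unadjusted p under 0.05. The smallest two-sided p that an exact sign-flip test of 4 arrays can give is 0.125.

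**Figure D1:**
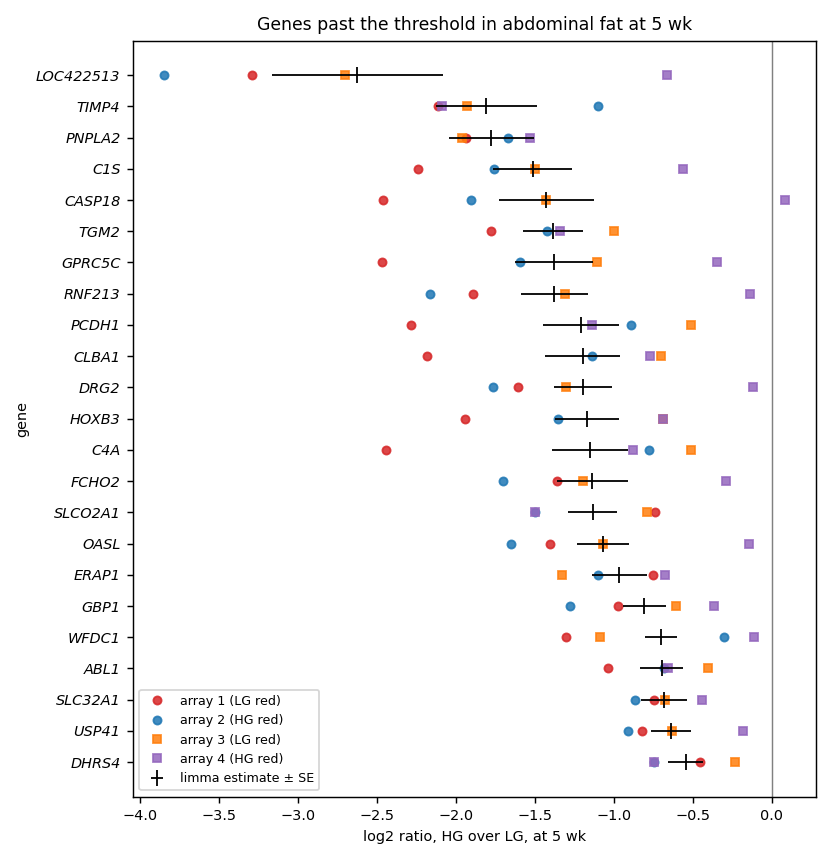
Log2 ratio of HG over LG (horizontal axis) in abdominal fat at 5 wk for the 23 genes past the threshold (vertical axis), with each array as a point and the limma estimate ± SE as a black bar. All estimates lie below 0, and array 4 lies nearest to 0 for 14 of the 23 genes.

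Among the antiviral genes, OASL (an interferon-induced member of the oligoadenylate synthetase family) read -1.40, -1.65, -1.07 and -0.15 on arrays 1 to 4. It was 2.10-fold lower in HG (log2 -1.07, SE 0.16, adjusted p = 0.00284). Arrays 1 to 3 were clearly below 0 and array 4 was close to it. The gene was read by 5 probes that did not share this pattern: probes at -2.85 and -2.36 passed on their own, and the others stood at -0.28, 0.07 and 0.08. RNF213, a large ubiquitin ligase known in mammals as interferon-inducible and as a protein of lipid droplets, read -1.89, -2.16, -1.31 and -0.14. It was 2.60-fold lower (log2 -1.38, SE 0.21, adjusted p = 0.00284), again with array 4 at the edge. Of the RNF213 probes that met the filter on missing spots, 1 carried most of it at -2.25, and the other stood at -0.50. With no filter on missing spots RNF213 was -0.81 and did not pass (adjusted p = 0.1855). Where each gene was read by only the probe measured on most arrays, OASL was 0.07 and RNF213 -0.50, and neither passed.

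GBP1, an interferon-induced GTPase, read -0.98, -1.28, -0.61 and -0.36 and was 1.75-fold lower (log2 -0.81, SE 0.14, adjusted p = 0.00723). USP41, a ubiquitin-specific protease, read -0.82, -0.91, -0.63 and -0.18 (log2 -0.64, SE 0.13, adjusted p = 0.0264). Both were lower in HG on every array, with array 4 the smallest difference, but neither was carried by all of its probes. Those of GBP1 stood at -1.38 and -0.23. Those of USP41 stood at -1.09, -1.09, -0.35 and -0.02, and none of them passed singly. With 1 probe per gene GBP1 was -0.23 and USP41 -0.02, and neither passed. GBP1 also did not pass with only probes measured on all 24 arrays (adjusted p = 0.862), whereas USP41 did. ERAP1, which trims peptides for loading onto class I molecules, read -0.76, -1.10, -1.33 and -0.67 (log2 -0.96, SE 0.17, adjusted p = 0.0107). Its probes, at -0.99 and -0.94, gave like values, and array 4 did not stand apart. Neither probe passed singly. ERAP1 also did not pass with 1 probe per gene (adjusted p = 0.0992) or with only probes measured on all 24 arrays (adjusted p = 0.0692). The lowest of all named values belonged to LOC422513, for which no role is given here: it read -3.29, -3.85, -2.70 and -0.66, a 6.17-fold lower level in HG (log2 -2.62, SE 0.54, adjusted p = 0.0331). Without the dye coefficient neither ERAP1 nor LOC422513 passed (adjusted p = 0.0524 for each).

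A list of 25 measured interferon-response and antigen-presentation genes had 18 negative values and 3 genes past the threshold (OASL, GBP1 and USP41), against the 0.372% of all genes. The probes of all 3 differed among themselves, and none of the 3 passed with 1 probe per gene. For OASL and USP41 a tie between equally measured probes decided which was used. Its median log2 ratio was -0.28, where that of all genes was 0.03. By array the list's median was -0.34, -0.28, -0.21 and 0.00, and it was -0.02 for the mean of the other 5 ages. The genes of class I presentation on the list were also below 0 without passing the test. BF1, the class I heavy chain, read -0.99, -0.89, -0.62 and -0.48 (log2 -0.75, adjusted p = 0.0916), and its light chain B2M read -1.36, -0.72, -0.43 and -0.47 (log2 -0.75, adjusted p = 0.380). Each of the 5 B2M probes was below 0 on all 4 arrays. Low readings of both genes were not limited to 5 wk. B2M read -0.68, -0.53, 0.18 and -1.18 at 3 wk and -1.24, -1.37, 0.50 and -0.51 at 7 wk. BF1 read -0.14, -0.67, 0.20 and -0.62 at 3 wk and -0.22, -0.92, 0.31 and -0.64 at 7 wk. At 1 wk B2M read 1.00, 0.66, 0.06 and 0.23, and BF1 read 0.77, 0.28, 0.77 and -0.205. ZNFX1, a helicase that senses viral RNA in mammals, read -2.26, -1.48, -0.60 and 0.25 (log2 -1.02, adjusted p = 0.421). It thus crossed 0 on array 4. Its probes differed, at -1.94 and -0.10.

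In the complement cascade, C1S read -2.24, -1.76, -1.50 and -0.56 and was 2.86-fold lower in HG (log2 -1.51, SE 0.25, adjusted p = 0.00552). All arrays were below 0. A pair of its 3 probes, at -2.28 and -2.02, passed on their own and the other stood at -0.24. C4A, a form of the C4 protein that C1S cleaves, read -2.44, -0.78, -0.51 and -0.88 (log2 -1.15, SE 0.24, adjusted p = 0.0353). Here array 1 was far below the other arrays, and without array 1 the value was -0.65 (adjusted p = 0.324). C1R, the protease that activates C1S, read -1.30, -1.12, -0.81 and -0.05 (log2 -0.82, SE 0.18, adjusted p = 0.0579), just short of the threshold, with its probes at -1.58 and -0.06. Without array 4 it passed (log2 -1.10, adjusted p = 0.00336). C1QC, a chain of the recognition molecule C1q, read -1.98, -0.74, -1.04 and -0.56 (log2 -1.08, adjusted p = 0.286).

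Over the 18 complement genes measured, 15 were negative, 2 passed the threshold (C1S and C4A) and 4 had an unadjusted p under 0.05, all lower. Of all 6183 genes, 0.372% passed, 59.9% were positive and 262 had an unadjusted p under 0.05 on the lower side. The list's median was -0.18 at 5 wk and -0.04 for the mean of the other ages. By age it was -0.01 at 1 wk, 0.02 at 3 wk, -0.11 at 7 wk, -0.03 at 9 wk and -0.06 at 11 wk. Its array medians at 5 wk were -0.78, -0.42, -0.08 and -0.07, so arrays 1 and 2 carried most of the value at 5 wk. In whole fat, fewer cells of a type and less RNA per cell cannot be told apart.

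**Figure D2:**
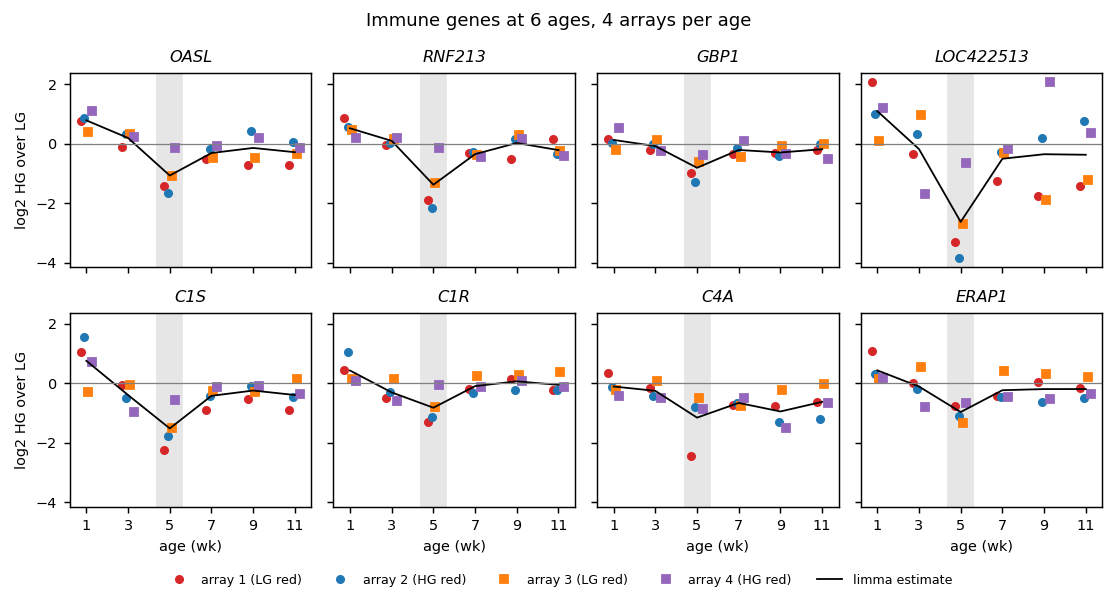
Log2 ratio of HG over LG (vertical axis) for 8 genes at 6 ages (horizontal axis, in wk), with each array as a point, the limma estimate as a line and 5 wk shaded. The title names immune genes, but no role is given here for LOC422513. The estimates of OASL, RNF213, LOC422513 and C1S lie above 0 at 1 wk, reach their lowest estimate at 5 wk and lie between -0.50 and 0.03 at 7, 9 and 11 wk.

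Marker genes of blood-derived immune cells were read beside these values. Of 20 leukocyte markers, 13 were negative and 0 passed the threshold, and 2 had an unadjusted p under 0.05, both lower (LY6E and C1QC). Of all 6183 genes, 59.9% were positive and 262 had an unadjusted p under 0.05 on the lower side. The list's median was -0.01, with array medians between -0.13 and 0.03. With the dye coefficient removed the array medians were all below 0, at -0.106, -0.0975, -0.0625 and -0.083. The T cell gene CD3E stood at -0.08, the macrophage receptor CSF1R at -0.03 and the leukocyte cytoskeletal gene LCP1 at 0.14. Other members were lower, with C1QC at -1.08, GNLY at -0.45 and LY6E at -0.39, while 7 of the 20 were positive. CD74, which chaperones class II molecules in antigen-presenting cells, stood at -0.21. Hepatocyte markers, which include secreted proteins of the blood, were lowest on array 4, where the interferon list stood at 0.00: the median of 31 was -0.34, 23 were negative and 0 passed, and the array medians were -0.27, -0.15, -0.05 and -0.52. ALB (serum albumin) read -0.17, -1.68, -0.36 and -3.66 (log2 -1.47, adjusted p = 0.658) and FETUB, a liver-secreted protease inhibitor, read -0.76, -5.27, 0.10 and -3.35 (log2 -2.32, adjusted p = 0.683). Arrays 2 and 4, with HG red, held the low readings of both. Their part in the results was not tested.

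TGM2, a transglutaminase that cross-links matrix proteins, read -1.78, -1.42, -1.002 and -1.34. It was 2.61-fold lower in HG (log2 -1.39, SE 0.19, adjusted p = 0.00213), and its probes, at -1.52 and -1.25, passed singly. All 4 arrays lay within a narrow range, array 4 included. TIMP4, an inhibitor of the metalloproteinases that break down matrix, read -2.12, -1.10, -1.93 and -2.09, a 3.50-fold lower level in HG (log2 -1.81, SE 0.32, adjusted p = 0.0103). Array 2 was the smallest difference. SLCO2A1, the transporter that takes up prostaglandins, read -0.74, -1.50, -0.79 and -1.50 and was 2.19-fold lower (log2 -1.13, SE 0.15, adjusted p = 0.00213). Its values followed the dye, with arrays 1 and 3 near -0.8 and arrays 2 and 4 at -1.50. Both of its probes that met the filter on missing spots passed, at -1.18 and -1.08. With no such filter the gene stood at -0.70 and did not pass.

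PNPLA2, which takes the first fatty acid off stored triglyceride, read -1.94, -1.67, -1.96 and -1.53 on its 1 probe. It was 3.42-fold lower in HG (log2 -1.77, SE 0.27, adjusted p = 0.00284), with no array apart from the rest. Its estimate was -0.50 at 1 wk, -0.62 at 3 wk, -1.60 at 7 wk, 0.18 at 9 wk and -0.25 at 11 wk, so the low values were those of 5 and 7 wk. The difference between 5 wk and the mean of the other ages was -1.22 and did not pass over all genes (adjusted p = 0.143). Of the 6 lipolysis genes measured, 5 were negative and PNPLA2 alone passed. Among all genes, 0.372% passed and 59.9% were positive. The array medians of the lipolysis list were -0.69, -0.24, -0.11 and -0.19, with array 1 the lowest. G0S2, the protein that inhibits this lipase, read -1.53, -0.47, 0.66 and -0.83 (log2 -0.54, adjusted p = 0.813), with arrays on either side of 0.

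These 4 genes and C4A and SLC32A1 made up the 6 of the 23 that also passed for the mean of the other 5 ages, where 1.68% of all genes passed, 0.631% on the lower side. That mean was -0.95 for TGM2, -1.07 for TIMP4, -0.60 for SLCO2A1, -0.56 for PNPLA2, -0.52 for C4A and -0.30 for SLC32A1. All 6 were thus lower in HG at both. TGM2 was negative at each age, between -0.65 at 1 wk and -1.39 at 5 wk.

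**Figure D3:**
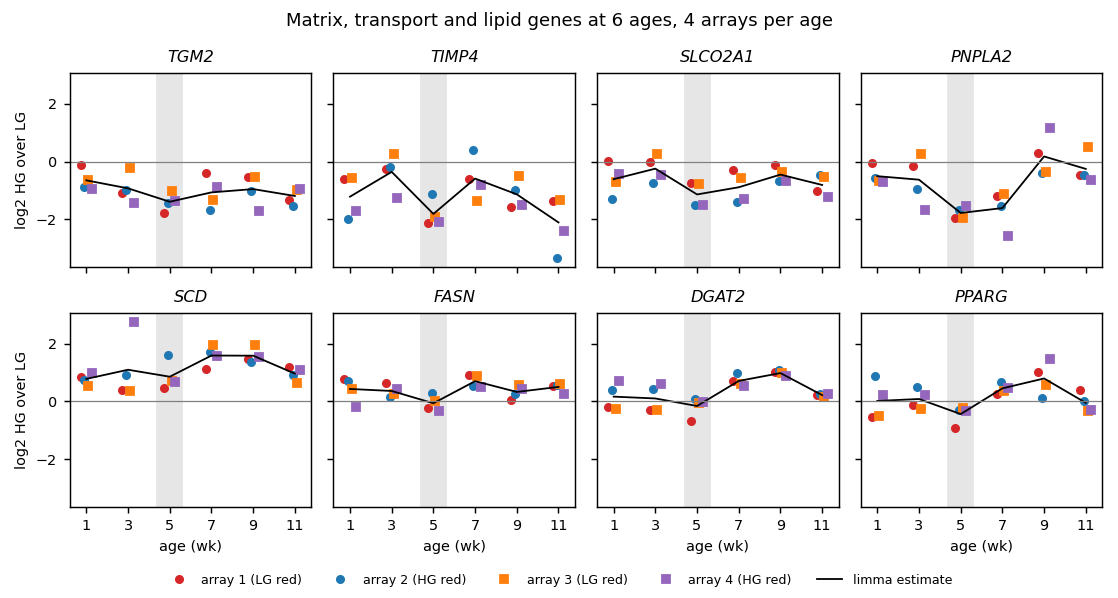
Log2 ratio of HG over LG (vertical axis) for 8 genes of matrix, transport and lipid metabolism at 6 ages (horizontal axis, in wk), with each array as a point, the limma estimate as a line and 5 wk shaded. The estimates of TGM2, TIMP4 and SLCO2A1 lie below 0 and those of SCD above 0 at every age, and FASN, DGAT2 and PPARG have their lowest estimate at 5 wk.

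The remaining genes past the threshold were of mixed function. DRG2, a GTP-binding protein, read -1.61, -1.76, -1.30 and -0.12 (log2 -1.20, SE 0.18, adjusted p = 0.00284), and only 1 of its probes carried this, at -2.43 against 0.04. GPRC5C, an orphan receptor, read -2.47, -1.60, -1.11 and -0.34 (log2 -1.38, SE 0.25, adjusted p = 0.0107), and FCHO2, which shapes membrane at sites of endocytosis, read -1.36, -1.70, -1.20 and -0.29 (log2 -1.14, adjusted p = 0.0264). All 3 shared the small difference on array 4. The caspase CASP18 read -2.46, -1.90, -1.43 and 0.09 (log2 -1.43, adjusted p = 0.0375) and was the only gene of the 23 with an array above 0. HOXB3, a homeobox factor, read -1.94, -1.35, -0.69 and -0.69 (log2 -1.17, adjusted p = 0.00751).

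The adhesion gene PCDH1 (log2 -1.21, adjusted p = 0.0299) and the clathrin-binding gene CLBA1 (log2 -1.20, adjusted p = 0.0264) were lowest on array 1, at -2.29 and -2.18. WFDC1, a secreted protein, read -1.30, -0.30, -1.09 and -0.11 (log2 -0.70, adjusted p = 0.00277), so its arrays split by dye. Its probes stood at -0.90, -1.21 and 0.01, and it did not pass without the dye coefficient (adjusted p = 0.271) or with 1 probe per gene (adjusted p = 0.132). The tyrosine kinase ABL1 (log2 -0.70, adjusted p = 0.0262), the vesicular transporter SLC32A1 (log2 -0.68, adjusted p = 0.0399) and the oxidoreductase DHRS4 (log2 -0.54, adjusted p = 0.0320) showed the other small differences. Without the dye coefficient DHRS4 did not pass (adjusted p = 0.993). With values as deposited neither DHRS4 (adjusted p = 0.0792) nor SLC32A1 (adjusted p = 0.0985) passed.

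Position on the array moved with some of these calls. Of 48 print blocks, block 35 held 7 of the 42 probes past the threshold and any other block at most 4. In it, 62 of 358 probes had an unadjusted p under 0.05, its median was -0.09, and the other blocks had medians of -0.07 to 0.13. The probe of GPRC5C, FCHO2 and DHRS4, the low probe of DRG2 and the ERAP1 probe at -0.99 lie in this block. With each print block centred, FCHO2 (log2 -0.999, adjusted p = 0.0753) and DHRS4 (log2 -0.41, adjusted p = 0.172) no longer passed. With each line of spots in a block centred, a setting added after the values had been seen, GPRC5C (log2 -0.90, adjusted p = 0.247), FCHO2 (log2 -0.66, adjusted p = 0.463) and DHRS4 (log2 -0.07, adjusted p = 1.00) did not pass, whereas DRG2 (log2 -0.94, adjusted p = 0.0262), OASL (log2 -1.06, adjusted p = 0.00333), RNF213 (log2 -1.37, adjusted p = 0.00333) and C1S (log2 -1.43, adjusted p = 0.0150) did. ABL1 (log2 -0.51, adjusted p = 0.121) and PCDH1 (log2 -1.12, adjusted p = 0.0970), whose probes lie in other blocks, also did not pass in that setting.

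None of the genes that make fatty acids and triglyceride passed the test at 5 wk. Of 21 measured, 12 were positive, and the median was 0.03 on the list and 0.03 over all genes. SCD, which desaturates stearate to oleate, read 0.45, 1.59, 0.71 and 0.65 (log2 0.85, SE 0.25, adjusted p = 0.266), higher in HG on all 4 arrays. SCD did pass with the arrays scaled (log2 1.08, adjusted p = 0.0357) and with array weights (log2 1.01, adjusted p = 0.00824). Its mean over the other ages was 1.20. FASN, the fatty acid synthase, read -0.23, 0.28, 0.02 and -0.34 (log2 -0.07, SE 0.13, adjusted p = 0.999), against 0.46 for the mean of the other ages. DGAT2, which adds the last acyl chain to triglyceride, read -0.66, 0.10, -0.05 and -0.03 (log2 -0.16, SE 0.13, adjusted p = 0.999), against 0.43 at the other ages. Both straddled 0 at 5 wk. The difference between 5 wk and the other ages was -0.53 for FASN (adjusted p = 0.213) and -0.59 for DGAT2 (adjusted p = 0.119), which did not pass over all genes.

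The regulator of adipocyte differentiation PPARG read -0.92, -0.29, -0.22 and -0.34 (log2 -0.44, SE 0.20, adjusted p = 0.619). PLIN1, which coats the lipid droplet, read -0.62, -0.24, -0.24 and -0.58 (log2 -0.42, SE 0.17, adjusted p = 0.552). Both were below 0 on all arrays without passing. Among the 12 adipocyte markers, 8 were negative and only PNPLA2 passed, the same gene as on the lipolysis list. Among all genes, 0.372% passed and 59.9% were positive. The list's median was -0.15 at 5 wk and 0.13 for the mean of the other ages, and the array medians were -0.37, -0.03, -0.01 and -0.34. With the dye coefficient removed they were -0.686, 0.13, -0.022 and -0.277, with array 2 above 0 and array 1 the lowest. At 11 wk the list's median was also negative, at -0.09. MED27, a subunit of the Mediator complex, read -0.61, -3.59, 0.12 and -1.67 (log2 -1.44, SE 0.50, adjusted p = 0.368), where its mean over the other ages was -2.24. Arrays 1 and 3, with LG red, lay above arrays 2 and 4, and only array 3 was near 0.

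No gene passed on the side of higher expression in HG. The lowest p on that side belonged to UQCRB, a subunit of respiratory complex III, which read 1.00, 0.91, 0.64 and 0.47 (log2 0.75, SE 0.17, adjusted p = 0.0549), with 0.56 for the mean of the other ages. It was higher in HG on every array. UQCRB did pass with the arrays scaled (adjusted p = 0.00718) and with array weights (adjusted p = 0.00795). It also passed with only probes measured on all 24 arrays (adjusted p = 0.0493) and without array 4 (adjusted p = 0.0382). Of the 42 genes that passed without array 4, 6 were higher and 36 lower. Genes of protein synthesis and others followed UQCRB. Among the others were CHSY3 (log2 0.73, adjusted p = 0.0916), HMGN2P46 (log2 0.81, adjusted p = 0.106) and MTMR12 (log2 1.03, adjusted p = 0.106). RPS10 read 0.96, 0.12, 0.60 and 0.09 (log2 0.44, adjusted p = 0.0752), and RPL3 read 1.21, 0.23, 0.80 and 0.07 (log2 0.58, adjusted p = 0.122). The tested probes of RPS10 differed, at 0.82 and 0.06, and those of RPL3 stood at 0.73 and 0.42. Both ribosomal genes were high on arrays 1 and 3 and close to 0 on arrays 2 and 4. The initiation factor EIF5B read 0.57, 0.21, 0.30 and 0.53 (log2 0.40, adjusted p = 0.111), without that split.

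Of 41 cytosolic ribosomal protein genes, 35 were positive, 0 passed and 19 had an unadjusted p under 0.05 on the higher side. The median was 0.22, against -0.06 for the mean of the other ages. By age it was 0.15 at 1 wk, -0.04 at 3 wk, -0.06 at 7 wk, -0.17 at 9 wk and -0.13 at 11 wk. The array medians at 5 wk, 0.70, -0.02, 0.41 and -0.17, alternated with the dye, and the median dye coefficient of the list was -0.23. With the dye coefficient removed the array medians were 0.50, 0.21, 0.23 and 0.12. Translation factors were positive in 27 of 33 cases with 6 at an unadjusted p under 0.05 (median 0.10), nuclear genes of oxidative phosphorylation in 29 of 38 (median 0.09) and proteasome genes in 25 of 33 (median 0.09), with 0 past the threshold in each. Over all 6183 genes, 59.9% were positive and 189 had an unadjusted p under 0.05 on the higher side.

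**Figure D4:**
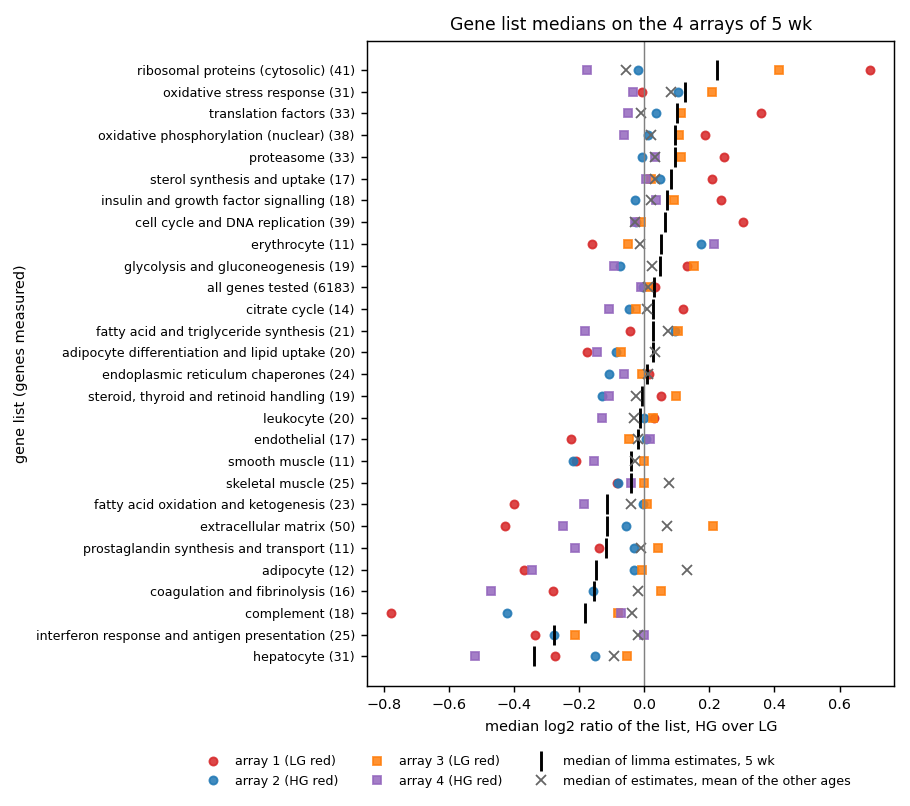
Median log2 ratio of HG over LG (horizontal axis) for gene lists (vertical axis, with the number of genes measured), as the 4 array medians at 5 wk, the median limma estimate at 5 wk and the median for the mean of the other 5 ages. Interferon, complement and hepatocyte lists have the lowest medians at 5 wk, -0.28, -0.18 and -0.34, and the ribosomal list has the highest, 0.22.

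Extracellular matrix genes were negative in 36 of 50 cases, 2 of which (TIMP4 and TGM2) passed, against 0.372% of all genes, with a median of -0.11 at 5 wk and 0.07 for the mean of the other ages. The array medians were -0.43, -0.06, 0.21 and -0.25, so array 3 went the other way. With the dye coefficient removed they were -0.512, 0.031, 0.118 and -0.165, with arrays 2 and 3 above 0 and array 1 the lowest. The collagen gene COL5A2 read -0.55, -0.55, -0.14 and -1.31 (log2 -0.64, adjusted p = 0.332), and fibronectin, FN1, read -1.33, -0.35, 0.25 and -0.71 (log2 -0.54, adjusted p = 0.529). Fatty acid oxidation genes were negative in 14 of 23 cases (median -0.11), 0 passed, and 4 had an unadjusted p under 0.05, all lower. Of all 6183 genes, 262 had such a p on the lower side and 59.9% were positive. SCP2, which carries lipids to peroxisomes, read -0.66, -0.42, 0.01 and -0.69 (log2 -0.44, adjusted p = 0.115). Its tested probes differed, at -1.18, -0.24 and 0.09. Coagulation genes had a median of -0.15 over 16 genes and 0 calls, with array 4 the lowest at -0.47. SERPIND1, heparin cofactor, read -1.02, -0.25, 0.09 and -2.73 (log2 -0.98, adjusted p = 0.849). Array 4 was thus the lowest for this gene and for ALB. The lists not described here had medians between -0.16 and 0.13, and SLCO2A1 was the only one of their genes to pass.

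The line difference at 5 wk was then compared with that at the other ages. For 5 wk minus the mean of the other 5 ages, 4 of 6183 genes (0.0647%) passed, all lower at 5 wk, and 395 had an unadjusted p under 0.05. The difference was -1.58 for GPRC5C (SE 0.27, adjusted p = 0.0197), -1.39 for RNF213 (SE 0.23, adjusted p = 0.0186), -1.32 for DRG2 (SE 0.20, adjusted p = 0.0160) and -1.12 for OASL (SE 0.18, adjusted p = 0.0160). All 4 had a mean of the other ages near 0, at 0.20, 0.02, 0.13 and 0.05, and a positive estimate at 1 wk, at 1.00, 0.52, 0.83 and 0.79. Leaving out array 1 or array 2 left 0 genes, leaving out array 3 gave 3 genes that included 2 of the 4, and leaving out array 4 gave 22 that included all 4. C1S came next to the threshold with -1.38 (SE 0.27, adjusted p = 0.0621). Against 3 wk alone, 0 genes passed with limma (259 at an unadjusted p under 0.05, lowest adjusted p 0.0848, for DRG2 and OASL), and against 7 wk alone 0 passed (365 at an unadjusted p under 0.05).

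**Figure D5:**
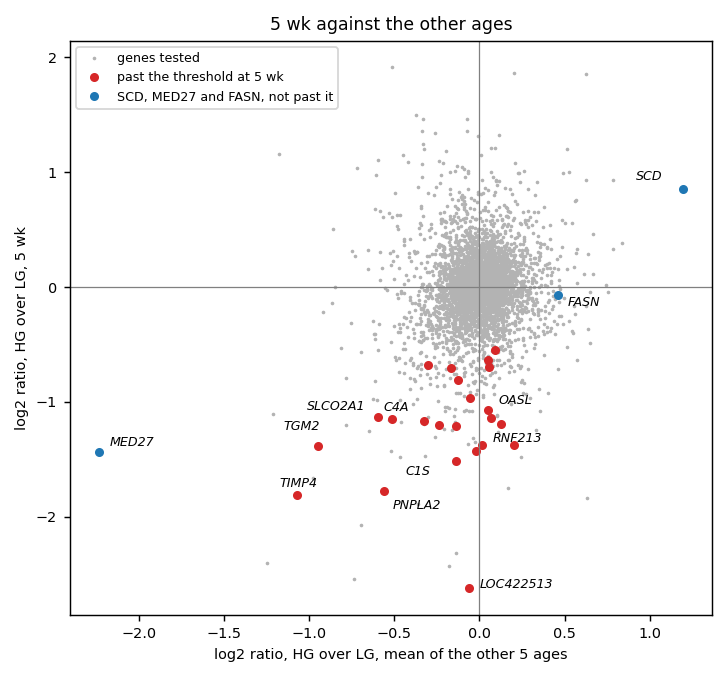
Log2 ratio of HG over LG at 5 wk (vertical axis) against that for the mean of the other 5 ages (horizontal axis), with each of 6183 genes as a grey point and the 23 past the threshold at 5 wk in red. TIMP4, TGM2, SLCO2A1, PNPLA2 and C4A lie below 0 on both axes, while OASL, RNF213 and LOC422513 lie below 0 at 5 wk and between -0.06 and 0.05 at the other ages.

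Single probes gave 42 calls among 16895 tested (0.249%), 5 higher (0.0296%) and 37 lower (0.219%). Of these, 26 had a symbol and all 26 were lower. They stood for 22 symbols, 19 of which also passed as genes. The other 3 were BF1 (-0.82), ZNFX1 (-1.94) and HSD17B13 (-1.34), a protein of hepatic lipid droplets in mammals, whose called probe read -2.75, -1.32, -0.81 and -0.46 and whose mean over its probes was -0.41.

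The 16 probes with no listed symbol held all 5 of the higher calls, and they are unnamed here, not without a gene. The highest of them read 0.87, 4.73, 3.65 and 2.59 (log2 2.96, SE 0.50, adjusted p = 0.00966), with 3.53 for the mean of the other ages. The next read 1.29, 3.90, 3.57 and 1.72 (log2 2.62, adjusted p = 0.00525), with 3.02 at the other ages. Array 1 was the lowest of both. The lowest unnamed probe read -5.75, -3.63 and -1.74 on arrays 1, 3 and 4 and was missing on array 2 (log2 -3.43, SE 0.57, adjusted p = 0.0121), with 0.11 at the other ages. It lies in print block 35. A probe outside that block read -4.26, -3.52, -2.45 and -0.97 (log2 -2.80, SE 0.39, adjusted p = 0.00298), with -0.08 at the other ages and 1.59 at 1 wk. Its arrays were ordered as those of C1S were.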

How the data were processed

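The authors labelled total RNA of 1 HG and 1 LG bird with Alexa dyes, hybridised spotted cDNA arrays, scanned them with a GenePix scanner and deposited 1 log2 ratio per spot. Their methods describe LOWESS normalization, which is not visible in the deposited log2 values: the medians of the 5 wk arrays ran from -0.318 to -0.059. The ratios were read as red over green. Missing values and those at the software's ceiling were left out. Intensities were not used here, so signal over background is unknown.

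Each array was centred on its median and turned to HG over LG. A probe had to be measured on 3 or more of the 4 arrays at each age, and probes of 1 symbol were averaged. A symbol that stood at 95 spots was left out. Spot names came from the annotation of the platform, whose identifiers hold their last numbers in exchanged order (annotated spots were then missing on 0.621 arrays and other spots on 1.84). Symbols were listed for 10601 spots, 10455 of them with a current gene identifier. The fit took all 24 arrays (limma 3.58.1, R 4.3.3) with 6 age coefficients and 1 dye coefficient, 17 residual degrees of freedom and Benjamini-Hochberg adjustment. The median SE of a gene at 5 wk was 0.16. The script was tested on simulated data.

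The comparison and the 30 gene lists were chosen with earlier results of these data known. Genes were named by rule: the 15 with the largest ratio in each direction past the threshold and of 1 sign on every array, filled by lowest p, the 6 in each direction that differed most from the other ages, every called member of a list and up to 4 more by p, and SCD, FASN, PNPLA2, TGM2, TIMP4, MED27 and PPARG. ABL1, CASP18, ERAP1, SLC32A1, WFDC1, HSD17B13 and the list members CD3E, CSF1R and LCP1 were named outside this rule after their values were seen. The mean of the other 5 ages was also tested, which was not planned. Alternatives covered centring, scaling, the dye coefficient, the replicate number, array weights, filters and single arrays. Missing values for ratios of small whole numbers and centring by lines of spots were added after seeing the data.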

Additional observations from a re-analysis of the deposited data

Results flagged for a closer look

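For 3 of the 92 named genes, array 1 stood far from the other 3 arrays of 5 wk, by a test that flags about 1 in 20 groups by chance. EIF3E, a subunit of initiation factor 3, read 1.67 on array 1 and 0.48 to 0.61 on the others. VLDLR, a lipoprotein receptor, read -1.87 on array 1 and -0.36 to -0.12 on the others. CCNB1, the mitotic cyclin, read 2.41 on array 1 and -0.24 to 0.14 on the others.

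For 4 genes the line difference at 5 wk differed from the mean of the other 5 ages by limma's test over all genes (adjusted p 0.0160 to 0.0197): OASL by -1.12, DRG2 by -1.32, RNF213 by -1.39 and GPRC5C by -1.58 on the log2 scale. All 4 were lower in HG on all 4 arrays of 5 wk. None of the 4 passed without array 1 or without array 2.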

How the results depend on the processing

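The 23 genes and 42 probes past the threshold at 5 wk became 68 and 181 with arrays scaled, 42 and 118 with array weights, and 0 and 0 with the 5 wk arrays alone. Leaving out 1 array gave 1 to 42 genes and 13 to 78 probes. Print blocks centred, values as deposited, no dye coefficient, other filters, 1 probe per gene and both added settings kept the gene count between 19 and 26. The 4 genes that differed from the other ages became 8 with print blocks centred, 30 with arrays scaled, 24 with array weights, 7 for probes on all 24 arrays, 2 with 1 probe per gene, 10 with lines of print blocks centred, and 0 to 22 without 1 array. The 8 probes became 47 with arrays scaled, 4 with no dye coefficient, 42 with array weights, 5 with no filter on missing spots, 5 with lines centred, and 0 to 37 without 1 array. Against 3 wk, 0 genes became 3 with array weights and 0 to 4 without 1 array. Against 7 wk, 0 became 6 and 0 to 2. The cause was not tested. With the replicate number as a block, 22 genes (21 of them shared, with LOC422513 at an adjusted p of 0.0559 and CASP18 at 0.0608 lost) and 32 probes passed at 5 wk, 5 probes passed against the other ages and 1 gene passed against 3 wk. The numbers did not pair the arrays: deviations of same-numbered arrays of different ages correlated at a mean r of -0.07 over 60 pairs (-0.36 to 0.24).

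Of 1557 values of named genes under an alternative, 1405 kept direction and side of the threshold, 96 lost it, 39 gained it and 17 changed sign. The sign changed with 1 probe per gene for AHSG (0.0743), APOA1 (0.00625), CYP51A1 (0.0863), ECI2 (0.137), IFI35 (0.120), OASL (0.07) and SCP2 (0.0945), and for AHSG also for probes on all 24 arrays (0.0743). It changed for ACSL1 with array weights (0.0769) and without replicate 1 (-0.764 to 0.238 without 1 array), for THRSP without replicate 1 (-0.386 to 0.0480), for FASN with array weights (0.0730), with lines centred (0.0336) and without replicate 1 or 4 (-0.219 to 0.0170), and for HBA1 with print blocks centred (-0.0076) or lines centred (-0.011). The medians of the fatty acid and triglyceride synthesis, interferon, complement, extracellular matrix and ribosomal lists moved by less than the spread between arrays, while some other lists moved by more in 1 or more settings. With values as deposited the median of all genes was -0.03 in place of 0.03. The number of arrays limits precision, and signal over background was not used here.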
